A study of Mus musculus with 42 samples.

Results

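The genes described here were 8 genes of cholesterol metabolism, Srebf2, Insig1, Hmgcs1, Idi1, Fdps, Fdft1, Sqle and Lss, measured in 3 tissues of mice that lack 1 of their Akt1 alleles. They were picked by name: every probe that was no control spot and whose printed gene name was one of the 8 was kept, which gave 19 probes of 41174 on the array. The set was drawn up as genes of synthesis and uptake, but none of the 8 is a receptor that takes up lipoproteins, so a separate list of uptake genes is given after the members. The study asked how the loss of 1 Akt1 allele and age shape gene expression, Akt1 being a kinase that relays insulin and growth factor signals. RNA of C57BL/6 females was hybridised, 1 sample to an array, to 42 one-colour Agilent arrays, 14 of each tissue (liver, quadriceps muscle, visceral fat). In each tissue the groups were heterozygotes (Akt1+/-, 1 allele deleted in the whole body) and wild-type littermates (Wt), at 8 weeks with 3 arrays a genotype and at 35 weeks with 4. The 35 weeks are those of the labels, whereas the study's methods name a higher age, so the exact age of the older mice is uncertain. The deletion is in every cell of the mouse, so a difference in a tissue need not arise in that tissue. Whether the mice were fed or fasted was not given in the sources used here. Nothing in the labels says that arrays of a group came from separate mice, and p-values measure only the spread between these samples, which may be technical.

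Cholesterol is built from acetyl-CoA through the mevalonate pathway. SREBP-2, the product of Srebf2, is the transcription factor that switches the genes of this pathway on together when sterols in the endoplasmic reticulum run low, and INSIG-1 holds its precursor there when sterols are plentiful. Of the enzymes, Hmgcs1 makes HMG-CoA at the start of the pathway, Idi1 and Fdps handle the isoprenoid steps that end in farnesyl diphosphate, and Fdft1 (squalene synthase), Sqle (squalene epoxidase) and Lss (lanosterol synthase) form the branch that is committed to sterols. Insig1 and Srebf2 are themselves targets of SREBP-2. The liver is the organ best known for switching these genes with feeding, and insulin signalling through AKT is known to raise SREBP activity there.

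Since SREBP-2 acts on promoters, the bases before the start sites of the members are shown for 3 of them, picked by role: the entry enzyme, the feedback protein and an isoprenoid enzyme. Of the 8 members, 5 (Srebf2, Insig1, Hmgcs1, Idi1 and Lss) matched the RefSeq promoter table of GRCm38.p6, and Fdps, Fdft1 and Sqle did not. Each run gives the 250 bases before the start site, on the plus strand of chr13:119690101-119690350 for Hmgcs1, chr5:28071162-28071411 for Insig1 and chr13:8885356-8885605 for Idi1, with capitals marking the letters CACNCCAC (the core of a sterol regulatory element), CCAAT (the NF-Y box) and GGGCGG (the Sp1 box) on either strand. No 2 of these matches overlap.
Hmgcs1: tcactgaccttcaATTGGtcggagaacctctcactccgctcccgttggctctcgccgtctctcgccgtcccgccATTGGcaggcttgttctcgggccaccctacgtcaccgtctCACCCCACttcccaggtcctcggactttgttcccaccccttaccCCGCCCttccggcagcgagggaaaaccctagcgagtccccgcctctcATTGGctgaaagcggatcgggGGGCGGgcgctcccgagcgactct
Insig1: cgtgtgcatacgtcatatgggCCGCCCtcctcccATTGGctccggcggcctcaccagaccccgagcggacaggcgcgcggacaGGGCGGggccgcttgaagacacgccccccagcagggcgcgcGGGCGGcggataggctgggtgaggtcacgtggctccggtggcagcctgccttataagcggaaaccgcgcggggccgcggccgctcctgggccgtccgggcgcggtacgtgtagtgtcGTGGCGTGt
Idi1: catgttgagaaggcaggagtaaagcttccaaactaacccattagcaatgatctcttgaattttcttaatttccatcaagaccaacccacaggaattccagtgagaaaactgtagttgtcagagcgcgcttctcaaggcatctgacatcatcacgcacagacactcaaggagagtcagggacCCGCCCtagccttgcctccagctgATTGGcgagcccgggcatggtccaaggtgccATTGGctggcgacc
The sterol element letters were in 2 of the 5 windows, against 5.29% of 32851 RefSeq windows of the same length. They lay at -136 to -129 from the start site of Hmgcs1 on the plus strand and at -9 to -2 of Insig1 on the minus strand, and the Idi1 window held none. The NF-Y box was in 5 of 5 members against 33.8% of all windows, with 3 copies in Hmgcs1, 2 in Idi1 and 1 each in Insig1, Lss and Srebf2. The Sp1 box was in 5 of 5 against 32.7%, with 4 copies in Srebf2, 3 in Insig1, 2 in Hmgcs1 and Lss and 1 in Idi1. A match of letters describes the window and is not a measured binding site.

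Between 56.53% and 68.64% of probes were well above background on an array, and the 75th percentile of the processed intensity ran from 274.2 to 795.2, so the number of arrays, not a read depth, limits the precision. A level in the text is the log2 of the processed intensity minus the log2 of that array's 75th percentile, so 0 means as bright as the 75th percentile. The targeted gene followed the labels: Akt1 in Akt1+/- arrays was 0.608 to 0.715 of the Wt level over the 3 tissues and 2 ages, and the genotypes did not overlap in any of these 6 comparisons. The labelled tissues held their markers: the 3 hepatocyte markers on the array and all 5 skeletal muscle and all 5 adipocyte markers were well above background on every array of their own tissue. In muscle the adipocyte markers were also present, with a summed log2 level of 7.05 to 8.12. In liver, of the 5 adipocyte markers, Fabp4 and Cidec were well above background on all 14 arrays, Adipoq and Plin1 on 1 each and Lep on none. At 35 weeks each genotype filled a slide of its own in every tissue, and slide and genotype cannot be told apart there. No scan day held both ages of a tissue, so age and scan day cannot be told apart.

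The brightest probe in a tissue stood for its gene, and the other probes of the gene are given beside it. Positions are those the array design gives on the mm8 build, for which no exon or UTR annotation was used here. The control genes were read at chr15:82032520-82032579 for Srebf2 (the brightest of 4 probes) and chr5:28408493-28408552 for Insig1 (of 2). The probe of Hmgcs1 (of 3) lay on an unplaced piece of chromosome 13 of that build, that of Fdps (of 2) at chr3:89180817-89180957, that of Sqle (the single one) at chr15:59160510-59160569, and that of Fdft1 (of 2) was placed in pieces across chr14:62101042-62105282. For Lss the brightest probe was another in each tissue, at chr10:75994380-75994439 in muscle, chr10:75996963-75997022 in liver and chr10:76000484-76000543 in fat. The array placed both Idi1 probes on chromosome 2, from 53516550 to 53518600, while RefSeq has the gene on chromosome 13, so Idi1 signal may be shared with a near-identical copy and its values are uncertain in that respect. The dimmest Srebf2 probe, at chr15:82004698-82004757, was well above background on 4 of 14 liver, 1 of 14 muscle and 4 of 14 fat arrays and passed the filter on dim probes in no tissue. The filter, which asked that 3 or more arrays of some group show the probe well above background, kept 18 member probes in liver and 17 each in muscle and fat, and all 8 genes in each tissue.

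On the brightest probe, 6 of the 8 genes had their highest mean in liver, Fdft1 and Lss had theirs in muscle, and none had its highest mean in fat. Of the members, 8 of 8 passed the test between liver and muscle, where 85.8% of 19858 tested genes passed, 8 of 8 between liver and fat, where 86.2% did, and 6 of 8 between muscle and fat, where 87.6% did, so the counts are near those of all genes and the sizes carry the description. These are tissue extracts, in which fewer cells of a type and less RNA per cell cannot be told apart. All tissue differences are log2 differences averaged over the 4 groups of genotype and age, with adjusted p from limma and Benjamini-Hochberg over all genes.

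The transcription factor and its feedback partner were both highest in liver. The mean level of Srebf2 was 3.27 ± 0.18 in liver, against 1.52 ± 0.09 in muscle and 2.22 ± 0.12 in fat (SD, n = 14 each). The 3 ranges, 3.05 to 3.62, 1.33 to 1.62 and 1.92 to 2.34, did not touch. Srebf2 in liver was 3.39-fold the muscle level (difference 1.76, SE 0.05, adjusted p = 1.9e-27) and 2.11-fold the fat level. Insig1 was at -0.09 ± 0.81 in liver, -2.20 ± 0.22 in muscle and -2.04 ± 0.49 in fat. Its liver level ran from -1.26 to 1.23 and overlapped the top of the fat range, which ended at -1.22. Liver exceeded muscle 4.47-fold and fat 3.97-fold, while muscle and fat differed by -0.17 with a 95% interval of -0.49 to 0.15 and were not separated.

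The enzymes showed more than 1 tissue order. Hmgcs1 was lowest in muscle at 2.76 ± 0.10, with liver at 4.92 ± 0.33 and fat at 4.54 ± 0.45. Liver and fat overlapped widely, and their difference of 0.40 (SE 0.09, adjusted p = 0.00014) was 1.32-fold and turned to -0.31 under another background correction and scaling. Sqle had the widest range: 1.04 ± 0.64 in liver, -0.92 ± 0.20 in fat and -3.12 ± 0.21 in muscle. Its lowest liver array (0.12) was above its highest fat array (-0.55), which was above its highest muscle array (-2.79), and liver was 17.3-fold the muscle level. Idi1 was at 2.08 ± 0.44 in liver, -0.08 ± 0.15 in muscle and -0.19 ± 0.26 in fat, a 4.47-fold and a 4.82-fold excess in liver, with muscle and fat within 0.11 of each other (95% interval -0.11 to 0.33).

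Fdps, Fdft1 and Lss were the genes for which muscle stood close to or above liver. Fdft1, which makes squalene, was highest in muscle: 3.53 ± 0.43 against 2.13 ± 0.53 in liver and 0.95 ± 0.59 in fat. The lowest muscle array (3.0) was above the highest liver array (2.93). Muscle was 2.70-fold the liver level and 5.98-fold the fat level. Fdps was at 1.62 ± 0.42 in liver and 1.22 ± 0.20 in muscle, a 1.30-fold difference with overlapping ranges, and fat lay lower at -0.27 ± 0.40. Lss, which closes the sterol rings, was at 0.23 ± 0.13 in muscle, -0.72 ± 0.23 in liver and -2.15 ± 0.30 in fat on its brightest probe over all arrays.

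**Figure D1:**
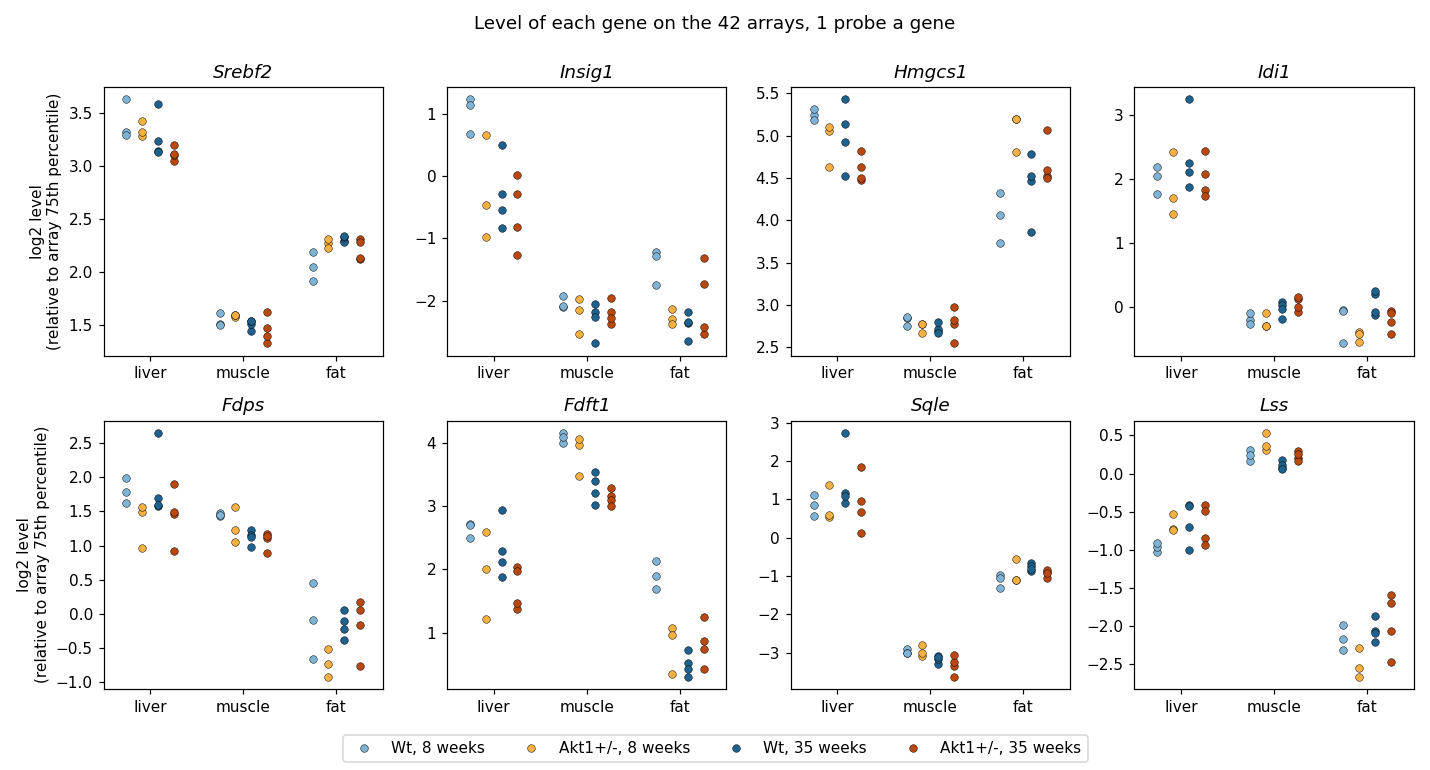
Level of the 8 genes on each of the 42 arrays (vertical axis, log2 relative to the array's 75th percentile) by tissue, with 1 point an array, coloured by genotype and age, and the brightest probe over all arrays for each gene. Sqle falls into 3 separate bands, with liver from 0.12 to 2.73 and muscle from -3.62 to -2.79, whereas Fdft1 and Lss are highest in muscle on these probes.

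The tissue order or its call depended on the probe for Lss, Fdps, Srebf2, Insig1, Idi1 and Hmgcs1. On the brightest probe over all arrays, Lss in liver was below muscle by 0.98 on the log2 scale (log2 difference -0.98, SE 0.08), but its 2 other probes put liver above muscle by 3.02 and 1.43, and for muscle minus fat they gave -1.55 and -1.11 where the first gave 2.41. So the order of the tissues for Lss is not settled by these arrays. The dimmer Fdps probe gave liver minus muscle 3.41 and muscle minus fat -0.50, against 0.38 and 1.53 on the brighter. For Srebf2 the probe at chr15:82000812-82000871 put muscle 0.18 above fat, where the brightest gave -0.69. For Insig1 the other probe put muscle -1.30 from fat (adjusted p = 1.6e-09), where the brighter gave -0.17. The second Idi1 probe put muscle 0.31 above fat and passed (adjusted p = 0.047), where the brighter gave 0.11. The 2 dimmer Hmgcs1 probes gave 0.45 and 0.12 for liver minus fat, neither of which passed. The excess of liver over muscle in Srebf2, Insig1, Hmgcs1, Idi1, Fdps and Sqle, and the excess of muscle over liver in Fdft1, was in the same direction on every probe tested.

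**Figure D2:**
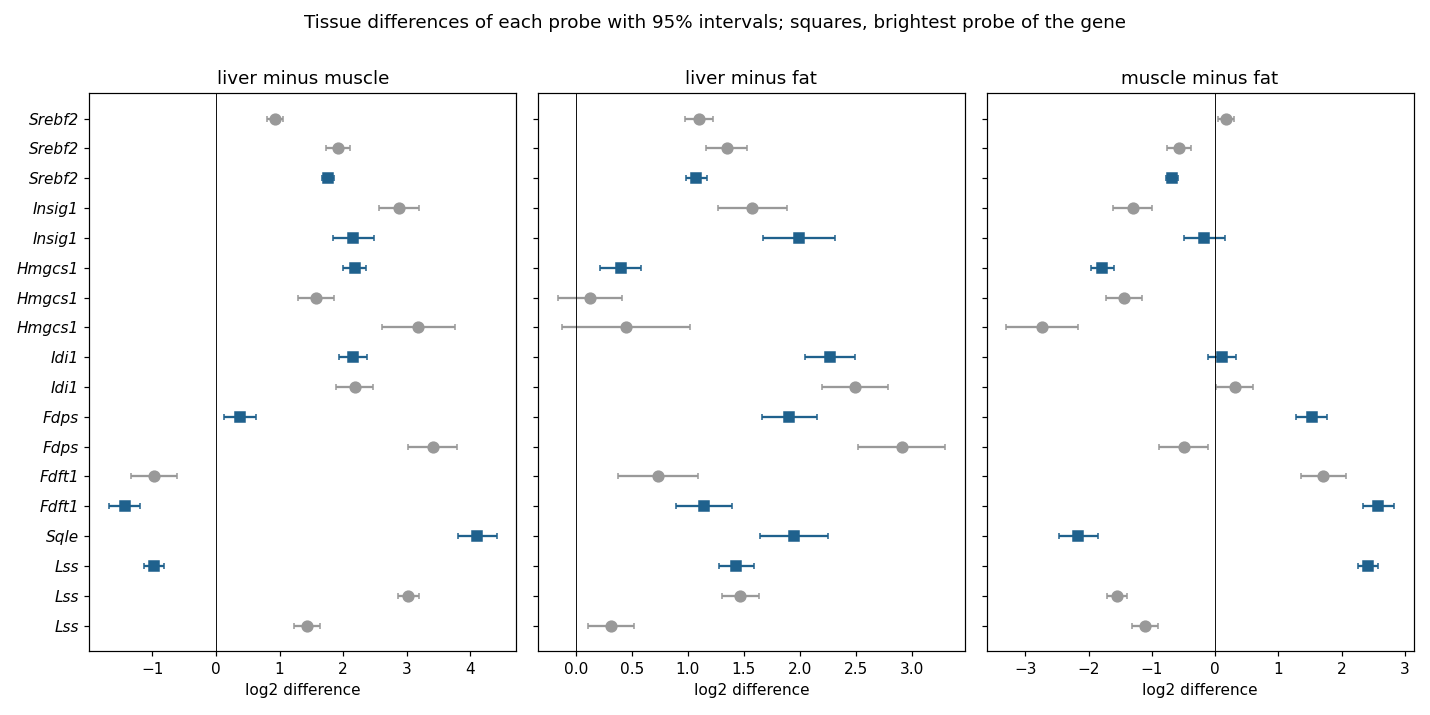
Tissue differences of each of the 18 member probes tested over all arrays (horizontal axis, log2 difference with its 95% interval; blue squares, the brightest probe of the gene; grey circles, the others). The 3 Lss probes lie at -0.98, 3.02 and 1.43 for liver minus muscle, on both sides of 0, while the Fdft1 probes lie at -1.44 and -0.97.

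On the brightest probe of each gene in liver, all 8 had a lower mean in Akt1+/- than in Wt over both ages, by a median of -0.33 on the log2 scale against 0.02 for all 17558 genes tested, and no member passed the test by itself. The largest differences were those of Insig1 (-0.79, SE 0.29, adjusted p = 0.11) and Fdft1 (-0.64, SE 0.22, adjusted p = 0.091), and Fdps (-0.45), Hmgcs1 (-0.36), Sqle (-0.29), Idi1 (-0.24), Srebf2 (-0.12) and Lss (-0.04) followed. The Lss probe at chr10:75994380-75994439 gave 0.13 in the other direction. Of all genes, 6.26% were called between genotypes over both ages by limma at a Benjamini-Hochberg adjusted p below 0.05. No member was, although 4 (Insig1, Fdft1, Fdps and Hmgcs1) had an unadjusted p below 0.05, as did 4635 of all 17558 genes. The methods' two-way test at p below 0.01 called none of the members either. The members vary together across liver arrays, so 8 lower means are not 8 separate observations.

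Insig1, the feedback protein, showed the largest difference at 8 weeks. Its Wt arrays read 0.68, 1.23 and 1.14, and its Akt1+/- arrays 0.67, -0.46 and -0.98. The groups did not overlap, but 1 Akt1+/- array lay just under the lowest Wt array and the other 2 far below it. The difference was -1.28 (SE 0.44, adjusted p = 0.13, 2.42-fold lower), and an exact two-sided permutation test gave p = 0.10, the smallest that 3 against 3 arrays allow. At 35 weeks Wt read -0.84, -0.28, -0.55 and 0.50 and Akt1+/- -1.26, -0.82, 0.01 and -0.29, which overlapped, with a difference of -0.30 (95% interval -1.13 to 0.53). The interaction of genotype and age was 0.98 (SE 0.58, adjusted p = 0.49). The second Insig1 probe gave -0.64 over both ages (SE 0.16) and passed in a fit over all probes (adjusted p = 0.041), where 4.55% of 25981 probes did.

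The squalene synthase gene Fdft1 read 2.71, 2.70 and 2.5 in Wt at 8 weeks and 2.59, 2.00 and 1.22 in Akt1+/-. At 35 weeks it read 2.11, 2.29, 1.87 and 2.93 in Wt and 1.38, 2.04, 1.97 and 1.47 in Akt1+/-. At both ages the Wt arrays were the higher on the whole, with 1 Akt1+/- array inside the Wt range at 8 weeks and 2 at 35 weeks. The differences were -0.70 (SE 0.33) and -0.58 (SE 0.28), close to each other, and the interaction was 0.12 with a 95% interval of -0.82 to 1.06. The dim second Fdft1 probe, well above background on 5 of 14 liver arrays, gave 0.07 (SE 0.18).

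Hmgcs1, the entry enzyme, read 5.25, 5.32 and 5.18 in Wt at 8 weeks and 5.05, 4.62 and 5.10 in Akt1+/-. The 3 Akt1+/- arrays were all under the 3 Wt arrays. At 35 weeks it read 5.13, 4.92, 4.53 and 5.43 in Wt and 4.63, 4.81, 4.48 and 4.50 in Akt1+/-, where the lowest Wt array fell among the Akt1+/- arrays. The difference over both ages was -0.36 (SE 0.13, adjusted p = 0.11), and 2 dimmer probes gave -0.01 and 0.02. Fdps also did not overlap at 8 weeks, with 1.62, 1.99 and 1.78 in Wt against 1.49, 1.56 and 0.96 in Akt1+/-. Its difference was -0.46 (SE 0.30). For Hmgcs1 and Fdps the exact two-sided permutation p at 8 weeks was 0.1, the smallest that 3 against 3 arrays allow. The share of all genes without overlap is not given here. Sqle differed by -0.01 at 8 weeks (95% interval -1.06 to 1.04) and by -0.57 at 35 weeks (-1.48 to 0.34). None of the members was called at 8 weeks, at 35 weeks or for the interaction, where 2.12%, 3.55% and 0.564% of all genes were. An unadjusted p below 0.05 was held by 1 member at 8 weeks (Insig1), 1 at 35 weeks (Hmgcs1) and 0 for the interaction. In the same order, it was held by 3664, 2990 and 2435 of all 17558 genes.

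**Figure D3:**
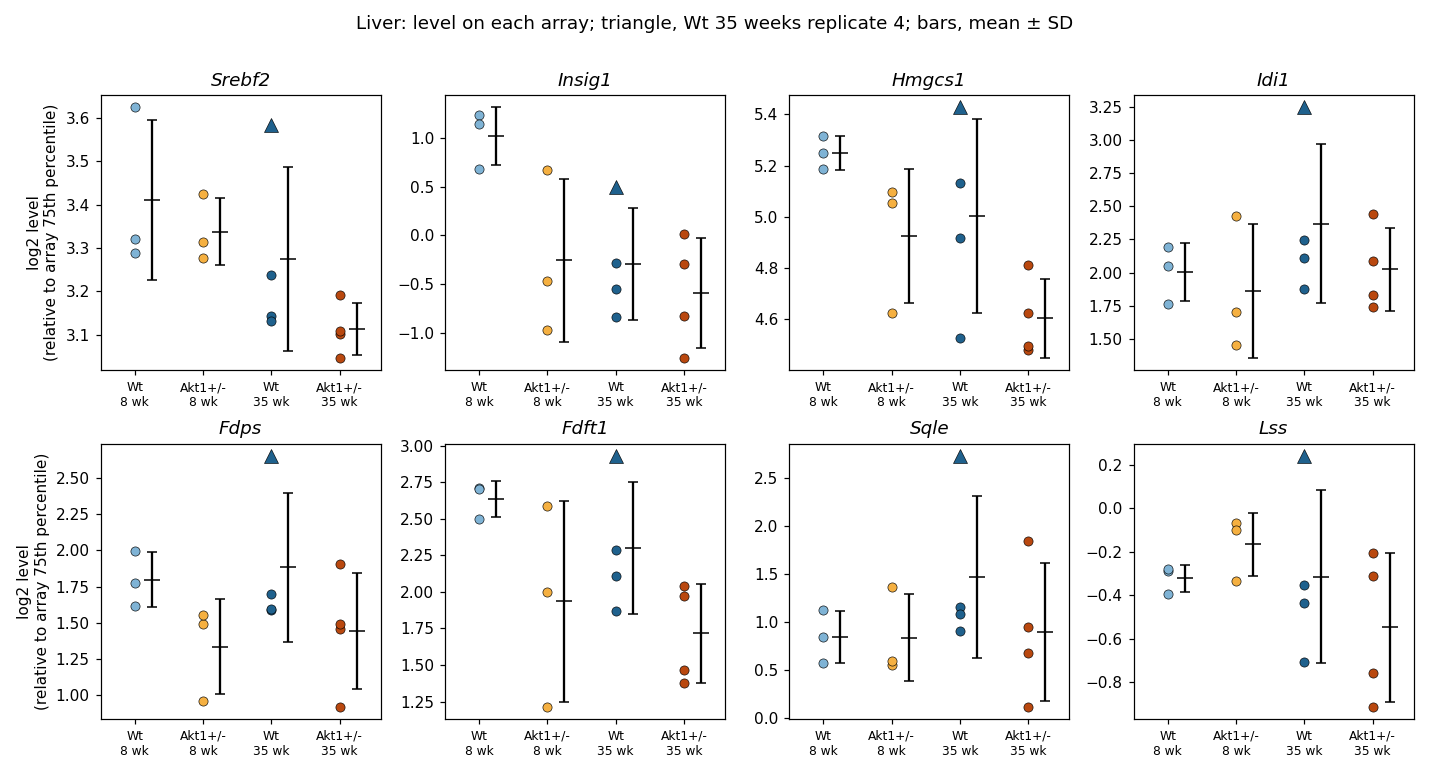
Liver level of the 8 genes on each array (vertical axes, log2 relative to the array's 75th percentile, each gene on its own scale) in the 4 groups, with the mean and SD of 3 or 4 arrays beside the points. The triangle, replicate 4 of the Wt arrays at 35 weeks, is the highest of its group for all 8 genes, for example at 2.73 for Sqle where the other 3 lie between 0.90 and 1.15.

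In a few single liver arrays most members were high together. Replicate 4 of the 35-week Wt group was the highest of its 4 arrays in 8 of 8 genes, by 0.70 above the group mean on average. Replicate 1 of the 8-week Akt1+/- group and replicate 3 of the 35-week Akt1+/- group were the highest of theirs in 6 of 8 genes each, by 0.39 and 0.37. Without the 35-week Wt replicate 4 the median difference between genotypes was -0.19 and 7 of 8 members had a lower mean in Akt1+/-. Without the 8-week Akt1+/- replicate 1, 2 members passed: Fdft1 at -0.81 (adjusted p = 0.039) and Insig1 at -1.02 (adjusted p = 0.043). With each array scaled to its median, 3 passed, Hmgcs1 (-0.49), Fdft1 (-0.77) and Insig1 (-0.92). That scaling moved the median of all genes from 0.02 to -0.11 between genotypes. The members' median lay -0.34 from the median of all genes under both scalings. For neither count of members that passed is the share of all genes given here.

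The members varied together across liver arrays. After the group means were taken out, the 28 pairs of members correlated across the 14 liver arrays with a median Pearson r of 0.67, and 28 of 28 were above 0. Sqle followed the mean of the other 7 most closely (r = 0.94), and Hmgcs1 least (0.39). Leaving out the 35-week Wt replicate 4 brought the median to 0.44, with 23 of 28 above 0. In muscle and fat the medians were 0.21 and 0.27, with 21 of 28 above 0 in each. The pairs share arrays and scaling, and no test is attached to them.

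Several members spread widely within the liver groups. Sqle varied with an SD of 0.66 about its liver group means, above 94.9% of all genes tested there, and Insig1 with 0.60, above 93.3%. In muscle the same SDs were 0.16 and 0.23, above 38.3% and 58.8% of genes, and Lss in muscle (0.08) exceeded only 4.57%. Srebf2 had a small spread everywhere, at the 25.6 percentile in liver, 5.59 in muscle and 4.08 in fat.

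Other cell types were measured beside these values in liver. At 8 weeks the summed level of 4 macrophage markers, all above background on every array, ran from 5.48 to 5.91 in Wt and from 6.17 to 6.51 in Akt1+/-. The summed level of 5 adipocyte markers ran from 3.44 to 3.75 and from 4.48 to 6.72, but Adipoq, Plin1 and Lep were above background on no array of either group, and the higher sum was that of Cidec, a lipid droplet gene that fatty liver also expresses, at 1.9 to 2.60 in Wt and 3.94 to 6.60 in Akt1+/-. The sum of 5 lymphocyte markers, -1.09 to -0.56 and -0.54 to -0.40, did not overlap either, and the hepatocyte sum was 10.04 to 10.37 and 9.85 to 10.17. At 35 weeks the macrophage sum (6.46 to 6.78 in Wt and 6.24 to 7.01 in Akt1+/-), the adipocyte sum (3.57 to 5.35 and 4.44 to 6.26) and the hepatocyte sum (10.05 to 10.50 and 10.01 to 10.20) overlapped, while the sum of exocrine pancreas markers did not (-0.77 to -0.51 and -0.33 to -0.04). Of the exocrine pancreas markers, Cpa1 and Pnlip were above background on no array of either 35-week group. The mean of Cela1 was lower in Akt1+/-. The higher sum was that of Ctrb1 (-1.62 to -1.02 in Wt and -0.89 to -0.67 in Akt1+/-) and Cel (-2.76 to -2.57 and -2.25 to -1.82). Both were also well above background on every muscle array, and whether they stand for pancreatic tissue in these livers was not tested. The part of other cell types in the member values was not tested. Within the scan day that held 3 Wt and 2 Akt1+/- arrays at 8 weeks, Insig1 differed by -1.17, Fdft1 by -0.74, Fdps by -0.57, Hmgcs1 by -0.17 and Srebf2 by -0.04. On that day Sqle (0.13), Idi1 (0.06) and Lss (0.12) were higher in Akt1+/-. No liver slide held both genotypes, so slide and genotype cannot be told apart in liver. On the shared scan day of the 35-week livers the values are those given above.

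With age, 1 member fell in liver, Insig1, by 0.82 on the log2 scale (SE 0.29, adjusted p = 0.044, 1.77-fold lower), where 35% of all genes were called. In Wt the ages did not overlap, with 0.68 to 1.23 at 8 weeks and -0.84 to 0.50 at 35 weeks, while in Akt1+/- they did. Its second probe gave -0.14 (SE 0.16, adjusted p = 0.51), and the call was lost when any of 9 of the 14 arrays was left out. Those arrays were replicates 2 and 3 of Wt and 1 and 2 of Akt1+/- at 8 weeks, and replicates 1 to 3 of Wt and 1 and 2 of Akt1+/- at 35 weeks. Hmgcs1 (-0.28) and Srebf2 (-0.18) were lower and Sqle (0.34), Idi1 (0.27) and Fdps (0.10) higher in the older livers, none of which passed. No member but Insig1 had an unadjusted p below 0.05, where 7886 of all 17558 genes did. Without the 35-week Wt replicate 4, 3 members passed, and the share of all genes that did so is not given here. Between the ages the macrophage sum given above did not overlap in Wt, where it was higher at 35 weeks, and overlapped in Akt1+/-. Cidec in Wt ran from 1.9 to 2.60 at 8 weeks and from 2.96 to 5.15 at 35 weeks. Their part in the age differences was not tested.

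A single Srebf2 probe fell with age in all 3 tissues. The probe at chr15:82031590-82031649 read 0.43, 0.36 and 0.25 in Wt liver at 8 weeks and -0.89, -0.60, -0.55 and -0.06 at 35 weeks, groups that did not overlap. It fell with age by 0.70 in liver (adjusted p = 0.0013), by 0.61 in muscle (adjusted p = 0.0015) and by 0.84 in fat (adjusted p = 0.0016) in a fit over all probes, where 33.6%, 31% and 20% of probes were called. The brightest Srebf2 probe gave -0.18, -0.08 and 0.10 and passed in none. The probe at chr15:82000812-82000871 fell in muscle by 0.54 (adjusted p = 0.00015) and gave 0.23 and 0.22 in liver and fat, neither of which passed. The age difference of Srebf2 thus differed between its probes.

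In muscle no member was called by genotype and 5 were called by age. Between genotypes over both ages 0% of all 17137 genes were called by limma. Akt1 itself was not called there either (-0.58, SE 0.11, adjusted p = 0.074). Nor was Akt1 called in muscle at 8 weeks (adjusted p = 0.21) or at 35 weeks (adjusted p = 0.13). A gene without a call in muscle is thus not shown to be unchanged. No member was called, and 1 (Lss, 0.14, SE 0.05) had an unadjusted p below 0.05, as did 3161 of all 17137 genes. The methods' two-way test at p below 0.01 called 1 member, and the share of all genes it called is not given here. The 2 other Lss probes gave -0.31 and -0.05 and the mean of its probes -0.07, so its direction depended on the probe. None was called for the interaction (0% of genes, and 0 members below 0.05 unadjusted), for 8 weeks (0%, and 0 members) and for 35 weeks (0.0992%, and 0 members). In the same order, 1435, 2704 and 1569 of all genes had an unadjusted p below 0.05. The intervals were narrow: the 95% interval of the genotype difference over both ages was -0.15 to 0.13 for Hmgcs1, -0.12 to 0.12 for Srebf2 and -0.43 to 0.02 for Fdft1.

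With age 4 members fell and 1 rose in muscle, against 31.4% of all genes called. Fdft1 read 3.99, 4.16 and 4.10 in Wt at 8 weeks and 3.40, 3.20, 3.02 and 3.53 at 35 weeks. In Akt1+/- it read 3.96, 3.48 and 4.05 and then 3.28, 3.16, 3.1 and 3.0. In each genotype every older array lay under the lowest younger one. The fall was 0.74 (SE 0.10, adjusted p = 0.00032, 1.68-fold lower). The second probe, well above background on all 14 muscle arrays, gave 0.22 (SE 0.10, adjusted p = 0.095).

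The other called differences in muscle were small. Sqle and Fdps each fell by 0.27 (SE 0.09 and 0.08, adjusted p = 0.033 and 0.026) and Lss by 0.16 (SE 0.05, adjusted p = 0.042), while Idi1 rose by 0.22 (SE 0.07, adjusted p = 0.023). These were folds of 1.21, 1.20, 1.11 and 1.16. Hmgcs1 differed by -0.03 with a 95% interval of -0.17 to 0.11 on its brightest probe, although a dimmer probe rose by 0.50 (adjusted p = 0.0080). The second Idi1 probe gave -0.11. Most of these calls depended on single arrays. Lss lost its call without any of 10 of the 14 arrays (all but the 8-week Wt replicate 1 and Akt1+/- replicate 2 and the 35-week Wt replicate 1 and Akt1+/- replicate 3) and under 6 of 13 other settings. Sqle lost it without any of 7 arrays, the 8-week Wt replicates 1 to 3 and Akt1+/- replicate 1 and the 35-week Wt replicates 1 and 3 and Akt1+/- replicate 1. Idi1 lost it without any of 4, the 8-week Wt replicates 1 and 3 and Akt1+/- replicates 2 and 3, and Fdps without 1, the 8-week Wt replicate 2. Fdft1 passed with any 1 array left out. The adipocyte sum ran from 7.05 to 7.12 in Wt at 8 weeks and from 7.36 to 7.70 at 35 weeks, without overlap. In Akt1+/- it ran from 7.44 to 8.12 and from 7.22 to 8.11, which overlapped, and its part in these differences was not tested.

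**Figure D4:**
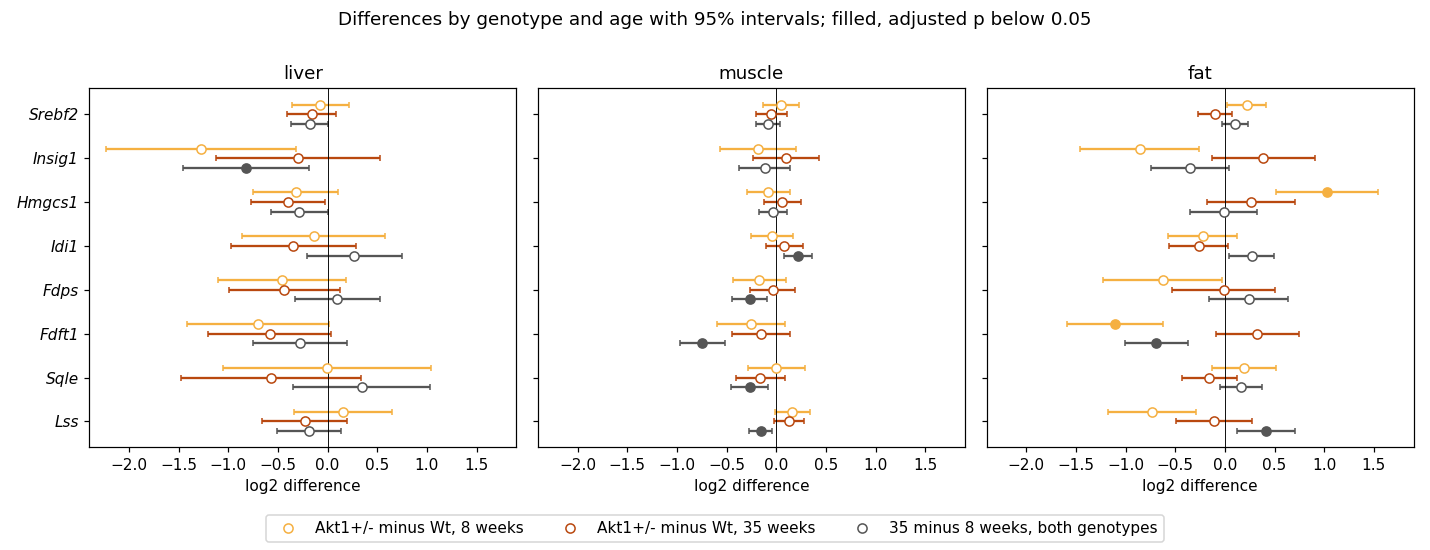
Differences of the 8 genes by genotype at 8 and at 35 weeks (Akt1+/- minus Wt) and by age (35 minus 8 weeks, both genotypes) in the 3 tissues, as log2 differences with 95% intervals on the horizontal axis and filled points where the adjusted p was below 0.05. The intervals are narrowest in muscle, and the filled genotype points are those of Fdft1 (-1.11) and Hmgcs1 (1.03) in fat at 8 weeks.

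In fat of 8-week mice 2 members differed by genotype in opposite directions, where 1.84% of 18361 genes were called. Fdft1 was lower in Akt1+/-: the Wt arrays read 1.89, 1.69 and 2.13 and the Akt1+/- arrays 1.08, 0.96 and 0.35. Every Akt1+/- array lay under every Wt array, and Fdft1 fell by 1.11 (SE 0.22, adjusted p = 0.038, 2.15-fold lower). The second Fdft1 probe was well above background on 3 of 14 fat arrays and did not pass the filter. All Fdft1 results in fat thus rest on 1 probe. Hmgcs1 was higher: 3.73, 4.06 and 4.32 in Wt and 5.20, 4.80 and 5.20 in Akt1+/-. These groups did not overlap either, and Hmgcs1 rose by 1.03 (SE 0.24, adjusted p = 0.0496, 2.04-fold). Its 2 dimmer probes gave 1.28 and 0.67 in the same direction without passing. In a fit over all probes rather than 1 a gene, the adjusted p of the brightest Hmgcs1 probe was 0.051.

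The remaining members in fat at 8 weeks did not pass, although 4 more had an unadjusted p below 0.05. So did 4421 of all 18361 genes. Insig1 read -1.75, -1.22 and -1.28 in Wt and -2.29, -2.14 and -2.38 in Akt1+/-, a difference of -0.86 (SE 0.28, adjusted p = 0.098). Lss read -1.18, -0.30 and -0.64 against -1.63, -1.33 and -1.36, a difference of -0.73 (SE 0.20, adjusted p = 0.070). In both genes the genotypes did not overlap. Fdps differed by -0.63 (SE 0.28) and Srebf2 by 0.22 (SE 0.09). The second Fdps probe gave 0.02.

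At 35 weeks no member in fat was called (1.72% of genes were). None had an unadjusted p below 0.05, where 2251 of all 18361 genes did. Fdft1 read 0.31, 0.73, 0.52 and 0.42 in Wt and 0.87, 1.25, 0.74 and 0.43 in Akt1+/-. The groups overlapped, at a difference of 0.33 (95% interval -0.09 to 0.75). The interaction of genotype and age for Fdft1 was 1.43 (SE 0.30, adjusted p = 0.035), the only one of the 8 called, where 1.65% of genes were. Insig1 had an interaction of 1.24 (SE 0.37, adjusted p = 0.099) and Hmgcs1 one of -0.76 (SE 0.31, adjusted p = 0.20). The Wt means of Fdft1 were 1.9 ± 0.22 (SD, n = 3) at 8 weeks and 0.49 ± 0.18 (n = 4) at 35 weeks, while the Akt1+/- means were 0.79 ± 0.39 and 0.82 ± 0.34.

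Over both ages no member passed by genotype in fat (0.822% of genes called). Hmgcs1 had the smallest adjusted p, 0.076, at 0.65 (SE 0.16, 95% interval 0.31 to 0.99). It passed with normexp (0.76, adjusted p = 0.037), with a replicate block, in the methods' two-way test at an unadjusted p below 0.01, in 1 fit over all 42 arrays and without the 8-week Wt replicate 3. In all, 4 members had an unadjusted p below 0.05, as did 3543 of all 18361 genes. With age 2 members were called, where 19.3% of genes were: Fdft1 fell by 0.69 (SE 0.15, adjusted p = 0.0079) and Lss rose by 0.42 (SE 0.13, adjusted p = 0.047). Of the other Lss probes, 1 rose by 0.40 (adjusted p = 0.019) and the last gave 0.32 (adjusted p = 0.11). Lss lost this call without any of 11 of the 14 arrays and under 6 of 13 other settings. It kept the call without the 8-week Wt replicate 2, the 35-week Wt replicate 3 or the 35-week Akt1+/- replicate 1. Fdft1 passed under all settings run, but all of them read the same single probe in fat.

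**Figure D5:**
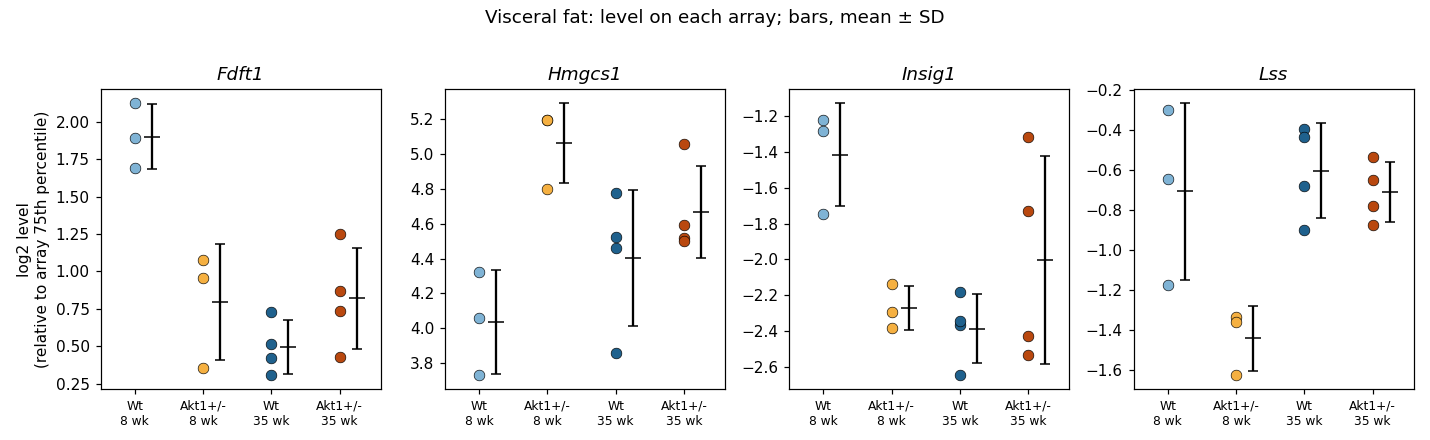
Level of Fdft1, Hmgcs1, Insig1 and Lss on each fat array (vertical axes, log2 relative to the array's 75th percentile, each gene on its own scale) in the 4 groups, with the mean and SD of 3 or 4 arrays beside the points. These 4 are shown because their genotypes do not overlap at 8 weeks. Non-overlap is a weaker measure than a call: its exact two-sided permutation p is 0.1, the smallest that 3 against 3 arrays allow. The share of all genes without overlap is not given here, and 1.84% of all genes were called by limma. Srebf2 does not overlap at 8 weeks either, and Sqle, Idi1 and Fdps do. At 35 weeks all 4 overlap.

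The fat calls at 8 weeks were close to the threshold. Fdft1 lost its call without any of 7 of the 14 arrays (the 8-week Wt replicate 2 and Akt1+/- replicates 1 to 3, and the 35-week Wt replicates 1 and 2 and Akt1+/- replicate 3), with adjusted p from 0.036 to 0.18 over the arrays left out. Hmgcs1 lost its call without any of 10, which were these and the 8-week Wt replicate 1 and the 35-week Akt1+/- replicates 2 and 4 (adjusted p from 0.027 to 0.20). Lss, which did not pass on all arrays, passed without the 8-week Wt replicate 1 (-0.97, adjusted p = 0.031). The Fdft1 interaction lost its call without any of 8 arrays (the 8-week Wt replicate 2 and Akt1+/- replicates 2 and 3, and the 35-week Wt replicates 1, 3 and 4 and Akt1+/- replicates 2 and 3), with adjusted p from 0.029 to 0.072. Replicate 1 of the 8-week Wt group was the lowest of its group in 7 of 8 genes. Replicates 1 and 2 of that Wt group lay on another slide and scan day than the other 8-week fat arrays. Within the slide that held 1 Wt and 3 Akt1+/- arrays, Fdft1 differed by -1.33, Hmgcs1 by 0.74, Insig1 by -0.99 and Lss by -0.80. These are the directions of the whole comparison, but they rest on 1 Wt array and on the same Akt1+/- arrays. At 35 weeks the genotypes were on different slides and scan days and cannot be told apart from them. The adipocyte marker sum at 8 weeks was 10.31 to 10.74 in Wt and 10.42 to 10.55 in Akt1+/-, and the macrophage sum 7.67 to 7.91 and 7.79 to 7.95. Within the 4 macrophage markers, Cd68 (1.57 to 2.04 and 2.21 to 2.70) and Adgre1 (2.96 to 3.25 and 3.47 to 3.83) did not overlap. The hepatocyte sum, 0.46 to 3.07 in Wt and -1.70 to -0.57 in Akt1+/-, did not overlap, nor did the lymphocyte sum (-2.01 to -1.85 and -1.85 to -1.64, apart by less than the rounding). The brown adipocyte sum (Ucp1 and Cidea) ran from 0.96 to 2.98 and from -0.14 to 3.49. At 35 weeks the adipocyte sum in fat did not overlap, at 10.53 to 10.74 in Wt and 10.21 to 10.49 in Akt1+/-. The macrophage sum did, at 7.88 to 8.13 and 7.68 to 7.93. So did the skeletal muscle sum, at 4.72 to 5.82 and 4.41 to 6.43. Within it Myh4 did not overlap (-1.71 to 1.32 and -3.78 to -2.62). The part of all these markers in the member differences was not tested.

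The 14 other enzymes of the pathway were described by the same counts. In liver 13 of 14 had a lower mean in Akt1+/- over both ages, with a median of -0.33, the same size as in the members. Of these, 3 fell: Mvd, the decarboxylase that makes isopentenyl diphosphate, by 0.93 (SE 0.23, adjusted p = 0.038), Pmvk, phosphomevalonate kinase, by 0.49 (SE 0.10, adjusted p = 0.024), and Sc5d, a late desaturase, by 0.40 (SE 0.09, adjusted p = 0.025). Of all genes tested in liver, 6.26% were called over both ages, 2.53% as lower and 3.73% as higher in Akt1+/-. The count of enzymes called ran from 0 to 5 when 1 array was left out and from 0 to 7 under other settings. These alternatives were chosen after seeing the data. The count was 0 without the 8-week Wt replicate 2, with slides as a random block and with no filter on dim probes. In muscle and fat none of the 14 was called by genotype at any age. Between tissues 11 were higher and 2 lower in liver than in muscle, with a median difference of 3.01, where 85.8% of all genes were called.

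With age the other enzymes moved both ways. In liver 1 was called higher and 2 lower, where 35% of all genes were called, and 12 of 14 had a lower mean (median -0.18). Hsd17b7 rose by 0.56 (adjusted p = 0.0063), and Lbr, 1 of the 2 that fell, did so by 0.31. In muscle Hsd17b7 rose by 1.23 (SE 0.12, adjusted p = 3.8e-05), Cyp51 by 0.23 and Tm7sf2 by 0.21, and Msmo1 fell by 0.22. Tm7sf2 is named after its value was seen, because the naming rule stopped at 3 genes. In fat Acat2 fell by 0.59, Dhcr7 by 0.50 and Lbr by 0.24. Of all genes, 31.4% were called by age in muscle and 19.3% in fat. Among 5 genes that control SREBP processing, Mbtps1, the protease that makes the first cut of the SREBP precursor, fell with age in liver by 0.52 (adjusted p = 0.0021) and in fat by 0.63 (adjusted p = 0.00055), and none was called by genotype.

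No gene of lipoprotein uptake and intracellular transport was called by genotype in any tissue, out of 11 tested in liver and in fat and 12 in muscle, where 6.26% of all genes in liver, 0.822% in fat and 0% in muscle were called over both ages. In older livers Lrp1, an endocytic receptor of remnant lipoproteins, fell by 0.49 (SE 0.08, adjusted p = 0.00054) and its chaperone Lrpap1 by 0.34, while Npc1, which exports cholesterol from lysosomes, rose by 0.28. In muscle Lrpap1 fell by 0.23 and Npc2 by 0.21, and in fat Lipa, the lysosomal lipase, rose by 0.30. Among 14 genes of efflux, esterification and bile acid synthesis, Nceh1, a cholesterol ester hydrolase, was higher in Akt1+/- liver by 0.48 (SE 0.11, adjusted p = 0.032). In Akt1+/- fat at 8 weeks Soat1, which esterifies cholesterol, rose by 1.0 (SE 0.21, adjusted p = 0.038) and Nceh1 by 0.68 (SE 0.15, adjusted p = 0.042). By genotype 1 gene of this list was called higher in Akt1+/- liver at 8 weeks and 1 in Akt1+/- fat over both ages. With age 3 of the list were called lower in liver, 2 higher and 1 lower in muscle, and 1 higher and 1 lower in fat. Of all genes, 35%, 31.4% and 19.3% were called by age there. Among those called, Abcg8 fell by 0.41 in liver and rose by 1.28 in muscle, and Abcg1, a sterol exporter, fell by 0.83 in fat.

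Genes whose array-to-array pattern was most like that of the members were sought in each tissue, by Pearson r across the 14 arrays with the mean of the 8 genes, each scaled to the same spread after group means were removed. In liver these included Msmo1, the sterol methyl oxidase (r = 0.93), Col4a5 (0.92), Fam122b (0.91) and Ntm (0.88), and 0.108% of genes had r above 0.8. In muscle Rgp1 (0.93), Kcp (0.91) and Aldoart2 (0.88) led, with 0.134% above 0.8. In fat Dld (0.96), Slc25a1, the mitochondrial citrate carrier (0.93), Bag1 (0.92) and Paqr9 (0.91) led, with 1.31% above 0.8. For the 14 other synthesis enzymes the median r was 0.50 in the liver arrays, 0.23 in those of muscle and 0.62 in those of fat. The members did not all follow their own mean. The lowest r of a member with the rest was 0.39 in liver (Hmgcs1), -0.07 in muscle (Srebf2) and -0.23 in fat (Fdft1). All these values share arrays and scaling and describe the 14 arrays of each tissue.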

How the data were processed

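RNA of liver, quadriceps muscle and visceral fat was measured on 42 one-colour Agilent arrays. The authors extracted the scans with Agilent Feature Extraction (9.1 in the submitters' processing notes) and deposited, per the file headers, a processed signal, a mean signal and a median background as intensities, with flags for control spots and for probes well above background. They also deposited a table of log2 values, which correlated at 1 with the log2 processed intensity on all 42 arrays, had column medians from -3.69 to -3.27 and is centred on each array's 75th percentile. The study's methods describe scaling and a two-way test of genotype and age in GeneSpring.

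Here the log2 processed intensity minus each array's 75th percentile was used. A probe was kept where 3 or more arrays of some group had it well above background, and a gene was read on its brightest kept probe. In each tissue limma (3.58.1, R 4.3.3) fitted 1 mean a group over 14 arrays, tissues were compared in 1 fit over 42, and p-values were adjusted by Benjamini-Hochberg over all genes (17558 in liver, 17137 in muscle, 18361 in fat, 19858 between tissues). A gene was called below an adjusted p of 0.05, and scripts were tested on simulated data. Single values were compared by exact two-sided permutation. Alternatives were normexp (offset 50) with quantile normalisation, median scaling, the deposited log2 values, other filters, the mean of probes or each probe, slide or replicate number as a block, the methods' two-way test, 1 fit over all arrays, and each array left out. Every member was named. From the other lists, Tm7sf2 apart, the genes named are among the 3 with the largest change of those called, and not all such genes are named. The members and lists were chosen with earlier results of these data known. The settings run on the list of other enzymes, and on the count of members with a lower mean, were chosen after seeing the data. Replicate numbers were not treated as pairs.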

Additional observations from a re-analysis of the deposited data

Results flagged for a closer look

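For each member in each group of 4 arrays (48 sets of values, all at 35 weeks), the gap of the highest or lowest array to the next was divided by the whole range of the group and set against Dixon's critical value at 95%, which chance passes in about 1 set of 20. It was passed by 3 sets. In liver, replicate 4 of the 35-week Wt group lay above its group with a ratio of 0.863 for Sqle and 0.893 for Fdps, and it was the highest of its group for the other 6 members as well. In fat, replicate 3 of the 35-week Akt1+/- group lay above its group for Hmgcs1 with a ratio of 0.836. The genotype difference of Fdft1 in fat differed between the ages, by an interaction of 1.43 on the log2 scale in limma (SE 0.30, Benjamini-Hochberg adjusted p = 0.035). What lies behind these values was not tested.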

How the results depend on the processing

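The counts of members called between tissues (8, 8 and 6) stayed at 8, 8 and 6 or 7 under the settings that count all members, which leaves out the single probes. For muscle minus fat, median scaling gave 7, with Idi1, and on the mean of probes the 6 held Insig1 and not Lss. Median scaling gave 3 members by genotype and 3 by age in liver, and 1 each by age and by genotype at 8 weeks in fat. Without the filter on dim probes there were 0 by age in liver, 1 by age in muscle, and in fat 1 by age, 0 for the interaction and 0 at 8 weeks. The mean of probes gave 0 by age in liver and 1 at 8 weeks in fat, the slide block 0 by age in liver, and normexp 1 by genotype and 1 by age in fat. The methods' two-way test at p below 0.01 gave 0 by age in liver, 1 by genotype in muscle, and in fat 1 by genotype, 1 by age and 2 for the interaction. After Benjamini-Hochberg it gave 0 by age in liver and, in fat, 1 by age and 0 for the interaction. The fit over all 42 arrays gave 2 by genotype, 2 by age and 1 at 8 weeks in liver, 1 by age in muscle and 1 by genotype in fat. Leaving out 1 array gave 0 to 2 by genotype, 0 to 3 by age and 0 to 1 at 8 weeks in liver, 2 to 5 by age in muscle, and in fat 0 to 1 by genotype, 1 to 2 by age, 0 to 2 for the interaction and 0 to 2 at 8 weeks. The share of all genes called under each other setting is not given here, so none of these counts is set against it. The causes were not tested.

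Signs turned mostly with the probe. Lss gave 3.02 and 1.43 on its other probes and 1.16 on their mean for liver minus muscle, -1.55, -1.11 and -0.083 for muscle minus fat, and -0.31, -0.054 and -0.074 for genotype in muscle. Other probes gave 0.071 for Fdft1 and 0.025 for Hmgcs1 by genotype in liver, 0.22 for Fdft1 and -0.11 for Idi1 by age in muscle, -0.54 for Idi1 by age in fat (-0.13 on the mean of probes), 0.025 for Fdps and -0.14 for Srebf2 at 8 weeks in fat, 0.054 and 0.13 for the Srebf2 interaction in fat, and, for muscle minus fat, -0.50 for Fdps and 0.18 for Srebf2. Hmgcs1 in liver minus fat was -0.31 with normexp.

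With the replicate number as a block, 3 members were called by age in muscle and 1 by genotype in fat, and no other count moved by over 1.5 times. Deviations of arrays that share a number correlated from -0.195 to 0.0603 over 9 pairs of arrays at 8 weeks and from 0.0919 to 0.408 over 12 at 35 weeks, so the numbers gave no pairing throughout. Dim probes, such as the second of Fdft1 in liver, limit what can be said of single probes.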
